A study of Homo sapiens with 11 samples.

Results

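Interferon-induced genes were followed as 9 members, IFIT1, IFIT2, IFIT3, IFIT5, ISG15, IFI6, IFIH1, IRF9 and OAS3, matched by gene symbol among the 58735 genes listed, of which 36039 had a count in at least 1 library. They were read for antiviral signalling after siRNA transfection in HEK293T cells, a human embryonic kidney cell line that carries the SV40 large T antigen. Messenger RNA was sequenced from cells 48 h after transfection with Lipofectamine RNAiMAX and an siRNA, and from control cells (n = 3 libraries). The siRNA was against NAE1 at 50 nM in siNAE1 (n = 3), against UBE2M at 70 nM in siUBE2M (n = 3) and against URM1 at 60 nM in siURM1 (n = 2). NAE1 is a subunit of the enzyme that activates the ubiquitin-like modifier NEDD8, UBE2M is a NEDD8-conjugating enzyme, and URM1 is a ubiquitin-like modifier that also carries sulfur for tRNA thiolation. By its labels the control received a control siRNA. The methods of the study describe a non-targeting one as the negative control for transfections, from another supplier than the targeting siRNAs and with no dose stated, while a legend names these libraries HKWT. If the labels hold, a response to transfection that all groups share does not show in a comparison with control. If the control was untransfected, transfection changed along with the knockdown. In each comparison with control, the targeted gene, the siRNA and its dose changed together and cannot be told apart. All libraries came from this 1 cell line, and the labels call them biological replicates without naming separate cultures, so p-values measure the spread between these libraries.

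Interferons are secreted proteins that cells make after they sense foreign or misplaced nucleic acid. Type I interferon binds a receptor whose kinases, JAK1 and TYK2, phosphorylate STAT proteins, which join IRF9 to form the complex ISGF3. ISGF3 binds the interferon-stimulated response element (ISRE) in promoters and raises a broad set of antiviral genes, and some of these, IFIT1 and ISG15 among them, can also be induced directly by IRF3. Double-stranded RNA is a trigger of this pathway, through sensors that include RIG-I (DDX58), MDA5 (IFIH1), PKR (EIF2AK2) and the endosomal receptor TLR3.

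The promoters of most members carried an ISRE-type motif, and some of these stretches are shown because they are a feature that members share outside their expression. The motif searched was GAAANNGAAA, on both strands of the RefSeq promoter windows (GRCh38.p14), which run from 250 bases before to 50 bases after each start. At least 1 match was present in 7 of the 8 members with a promoter listed, while 3.57% of all 35116 promoters and 2.76% of the 17005 promoters of tested genes held a match. Among other interferon-induced genes the motif was common too, with a match in 31 of 44 that had a promoter listed. The promoter of IRF9 held no match, and none was listed for IFIT2. The list holds stretches of 5 members that passed the test below in at least 1 knockdown, and leaves out those of IFIT3 and IFIH1 and further ones of IFIT5, IFI6 and OAS3. Sequences are written 5′ to 3′ on the strand of the gene, with the motif or its reverse complement in capitals:
ISG15, chr1:1013379-1013404, plus strand: ctcggGAAAGGGAAACCGAAActgaa
IFIT1, chr10:89392502-89392521, plus strand: tttagTTTCACTTTCccctt
IFIT1, chr10:89392515-89392534, plus strand: tccccTTTCGGTTTCcctag
IFIT5, chr10:89414518-89414537, plus strand: ttaagTTTCGGTTTCtgaag
IFI6, chr1:27672334-27672353, minus strand: gagggGAAAATGAAActctg
IFI6, chr1:27672293-27672312, minus strand: gagggGAAAATGAAActgca
OAS3, chr12:112938326-112938345, plus strand: gaaacGAAACTGAAAgcagg
The ISG15 stretch held 2 overlapping matches, 113 to 98 bases before the RefSeq start. IFI6 held 3 matches, and the 2 farthest from its start carried the same letters in capitals. Both matches of IFIT1 read on the opposite strand and lay 116 to 94 bases before its start. A match describes letters in a window and does not show that a factor bound there.

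Total counts ranged from 11733163 to 16321391 per library, and the targeted genes fell in their own groups, NAE1 by 1.36, UBE2M by 3.98 and URM1 by 1.80 on the log2 scale. Each of these had an adjusted p of at most 2.59e-15 in edgeR's quasi-likelihood test, which was run over 18368 genes with Benjamini-Hochberg adjustment. Of the markers of other cell types, CD3E and MS4A1 had no count in any library and PTPRC had at most 3, while the summed level of the leucocyte list was 4.10 to 6.14 CPM (counts scaled to the size of the library) in control, 5.45 to 8.98 in siNAE1, 8.28 to 8.45 in siUBE2M and 3.67 to 4.43 in siURM1. CD14, a myeloid gene on that list, had 3 to 13 counts in control and rose by 2.35 in siNAE1 (SE 0.41, adjusted p = 1.36e-05) and 2.37 in siUBE2M (SE 0.41, adjusted p = 1.52e-05) on the log2 scale. The embryonic kidney and epithelial list, of which all 6 genes were tested, summed to 324 to 340 CPM in control and to 368 to 551 in the knockdown libraries. VIM held the largest part, with 164 to 181 CPM in control and 216 to 378 in the knockdown libraries, while of the 6 genes 2 rose and 0 fell in siNAE1, 2 rose and 2 fell (PAX2 and KRT8) in siUBE2M, and 5 rose and 1 fell (EPCAM) in siURM1. The fibroblast and endothelial list summed to 19.9 to 23.6 CPM in control, 17.9 to 22.3 in siNAE1, 25.7 to 31.7 in siUBE2M and 22.3 to 25.1 in siURM1, so that the siUBE2M libraries lay above the control. Of its 8 genes only 2 were tested, of which 1 rose in siNAE1, 2 in siUBE2M and 1 in siURM1, and 0 fell. Over all genes tested, 27.6% rose and 27.1% fell in siNAE1, 22.7% and 22.6% in siUBE2M, and 20.8% each way in siURM1. The part of these marker levels in the results below was not tested. In bulk libraries, fewer cells with a transcript and less of it per cell cannot be told apart.

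The members did not move together: IFIT1 and IFI6 rose and ISG15 fell in every knockdown, while each of the others missed the test in at least 1 knockdown or was not tested. Rose and fell are used here for an adjusted p under 0.05 at any fold, and a DEG has in addition a log2 fold change of 1 or more, or of -1 or less. Of the 9 members, 8 passed the filter on low counts and were tested, and IFIT2 did not pass. In siNAE1, 3 members rose (IFIT1, IFI6 and IRF9) and 2 fell (ISG15 and OAS3), where 54.7% of all genes tested passed in either direction. In siUBE2M, 3 rose (IFIT1, IFI6 and IRF9) and 2 fell (ISG15 and IFIT5), where 45.3% of all genes passed. In siURM1, 2 rose (IFIT1 and IFI6) and 1 fell (ISG15), where 41.6% passed. Counts of this size among 8 genes lie near the background and are no result about the members as a group. DEGs numbered 3 in siNAE1, 2 in siUBE2M and 3 in siURM1, beside 13.9%, 7.11% and 7.62% of all genes. Libraries did not overlap the control for 5 tested members in siNAE1, 6 in siUBE2M and 6 in siURM1, beside 59.5%, 53.7% and 60.8% of all genes. In all knockdown libraries together, IFIT1, IFI6 and IRF9 lay above every control library, as 11.8% of all genes did, and ISG15 lay below, as 13.3% did. Without siNAE1 replicate 1, the number of members past the test in siNAE1 was 3, and without siUBE2M replicate 2, the number of DEGs in siUBE2M was 1. The median log2 fold change of the 8 members was -0.22 in siNAE1, 0.68 in siUBE2M and 0.44 in siURM1, beside -0.0021, 0.0075 and -0.021 over all genes. The summed level of the 9 members was 48.4 to 51.9 CPM in control and 39.4 to 39.9 in siNAE1. It was 40.9 to 47.0 CPM in siUBE2M and siURM1, so that every knockdown library lay below every control library. ISG15, which fell in every knockdown, held the largest part of the control sum, while IFIT1, IFI6 and IRF9 lay above the control. The lower sum therefore does not describe the members other than ISG15.

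**Figure D1:**
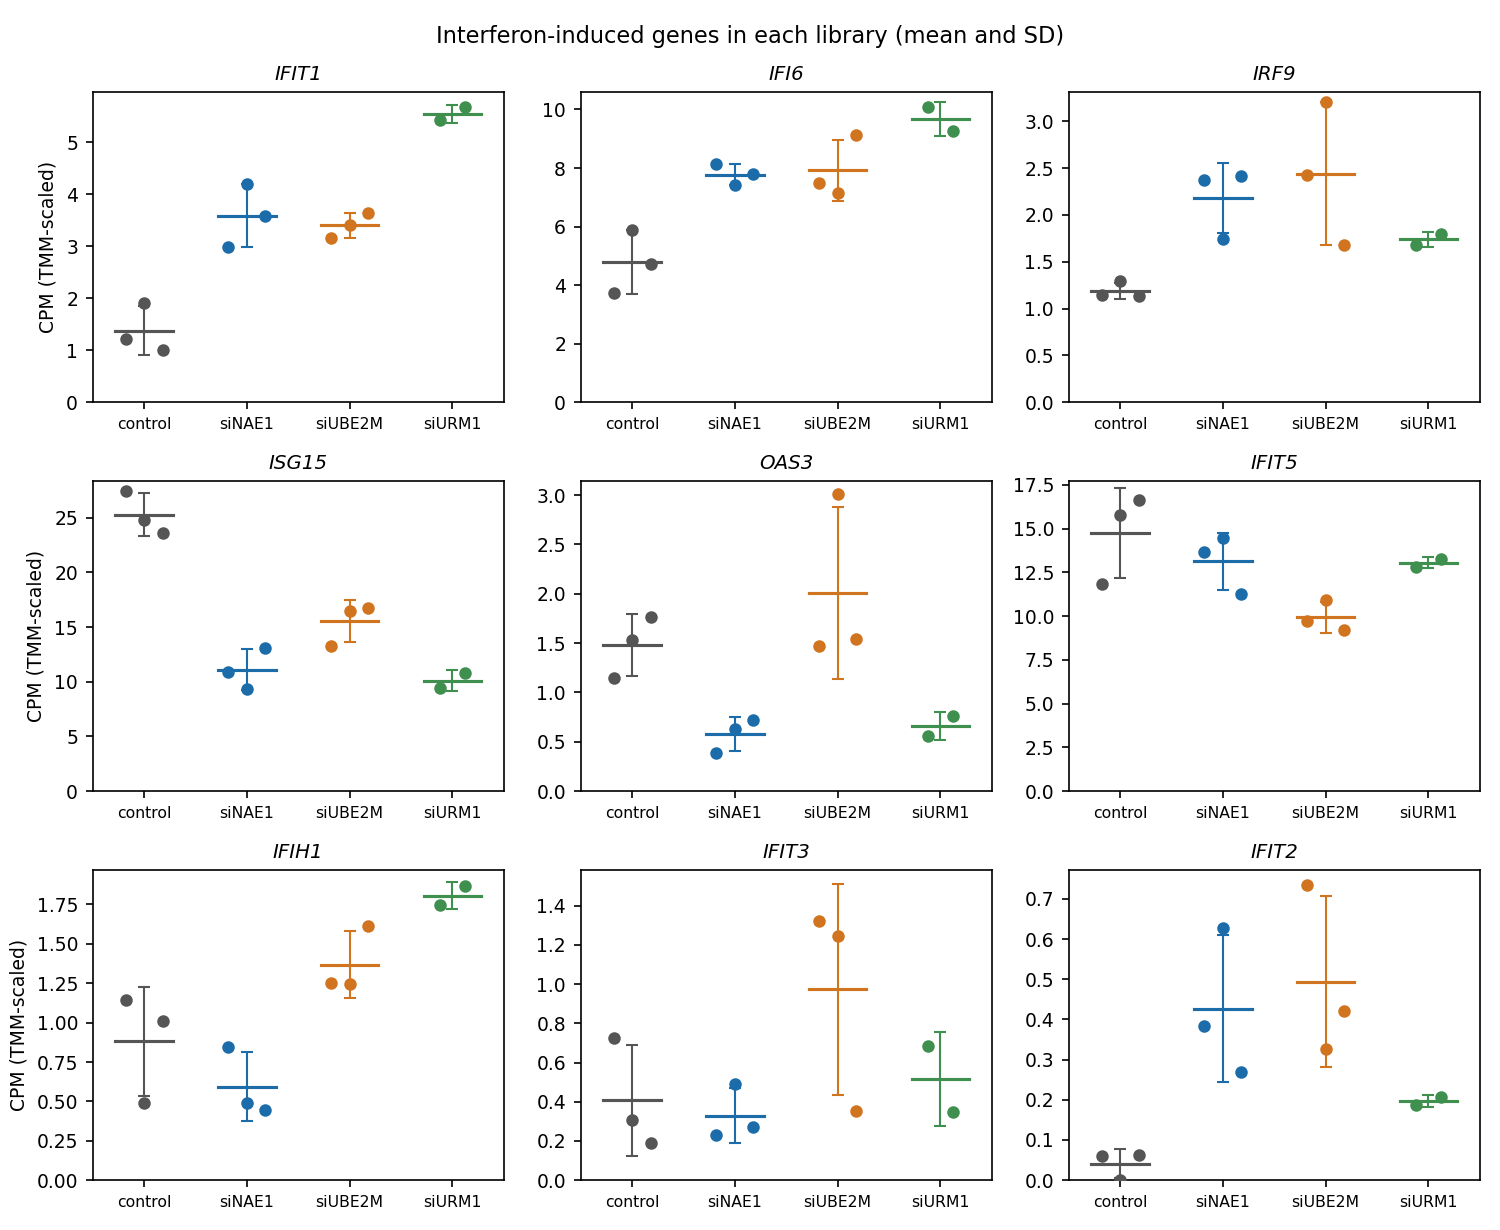
Level of each of the 9 members in each library, in CPM scaled by TMM, with 1 point per library, a line at the group mean and a bar of 1 SD, for control (n = 3), siNAE1 (n = 3), siUBE2M (n = 3) and siURM1 (n = 2). All knockdown points of IFIT1, IFI6, IRF9 and IFIT2 lie above all control points, and all of ISG15 lie below. The axes differ between panels and start at 0.

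The IFIT proteins bind viral RNA, IFIT1 by its cap structure, and block its translation. Their genes lie in 1 cluster on chromosome 10 on the plus strand: IFIT2 at chr10:89283694-89309276, IFIT3 at chr10:89327894-89340971, IFIT1 at chr10:89392546-89406486 and IFIT5 at chr10:89414586-89421001 (GRCh38). IFIT1 had 20, 31 and 16 counts in control, 39, 60 and 40 in siNAE1, 43, 52 and 52 in siUBE2M, and 87 and 82 in siURM1. No knockdown library overlapped the control, and the siURM1 libraries were the highest. The level of IFIT1 was 1.37 ± 0.47 CPM in control (SD, n = 3), 3.59 ± 0.60 in siNAE1, 3.40 ± 0.24 in siUBE2M and 5.55 ± 0.18 in siURM1 (n = 2). IFIT1 rose by a log2 fold change of 1.38 (SE 0.27, edgeR adjusted p = 5.21e-05) in siNAE1, 1.30 (SE 0.27, adjusted p = 0.000148) in siUBE2M and 2.01 (SE 0.27, adjusted p = 4.24e-07) in siURM1. Among the 8 tested members, IFIT1 had the highest log2 fold change in each knockdown. In siUBE2M this rank turned on 1 library, since IFIT3 had 1.23 (SE 0.58) there. IFIT3 reached 1.94 without control replicate 1 and 1.63 without siUBE2M replicate 3, while IFIT1 reached at most 1.62 in any fit without 1 library.

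IFIT2, whose product pairs with IFIT1 and IFIT3 and promotes apoptosis, was near the floor of detection of 3 counts. It had 1, 0 and 1 counts in control, 5, 9 and 3 in siNAE1, 10, 5 and 6 in siUBE2M, and 3 and 3 in siURM1. Every knockdown library held more counts than any control library. Against the 2 counts of the 3 control libraries together, the ratio of summed levels was 9.87 (95% exact interval 2.34 to 88.0) for 17 counts in siNAE1, 11.4 (2.79 to 100.3) for 21 counts in siUBE2M and 4.50 (0.805 to 45.6) for 6 counts in siURM1. These intervals cover counting error only. In a fit without the filter, edgeR gave an adjusted p of 0.0138 in siNAE1, 0.00891 in siUBE2M and 0.318 in siURM1 for IFIT2.

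IFIT3, which stabilizes the IFIT1 complex, had 12, 5 and 3 counts in control, 3, 7 and 3 in siNAE1, 18, 19 and 5 in siUBE2M, and 11 and 5 in siURM1. The groups overlapped throughout, and the third siUBE2M library stood with the control. Its log2 fold change was -0.28 (SE 0.69) in siNAE1, 1.23 (SE 0.58) in siUBE2M and 0.34 (SE 0.70) in siURM1, with edgeR adjusted p of 0.758, 0.0849 and 0.730. In siUBE2M, the adjusted p was 0.0303 without control replicate 1, with a log2 fold change of 1.94, and 0.0250 without siUBE2M replicate 3, with 1.63. Without control replicate 1 the log2 fold change in siNAE1 was 0.42, and without siURM1 replicate 1 that in siURM1 was -0.24.

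IFIT5, which binds RNA with a 5′ phosphate and was the IFIT gene with the most counts, had 196, 257 and 264 counts in control, 178, 207 and 126 in siNAE1, 132, 167 and 131 in siUBE2M, and 206 and 192 in siURM1. Its level was 14.7 ± 2.57 CPM in control (SD, n = 3) and 9.94 ± 0.90 in siUBE2M (n = 3), where all libraries lay below the control. IFIT5 fell by 0.57 on the log2 scale (SE 0.14, edgeR adjusted p = 0.000963) in siUBE2M. Its log2 fold change was -0.16 (SE 0.13) in siNAE1 and -0.17 (SE 0.15) in siURM1, with adjusted p of 0.322 and 0.365. IFIT5 thus went the other way from IFIT1, its neighbour in the cluster, in siUBE2M. LIPA, a lysosomal lipase gene chosen after its values were seen, lies on the opposite strand across IFIT1, IFIT2 and IFIT3 and had 858 to 1419 counts per library. The level of LIPA was 57.4 to 68.2 CPM in control, 91.1 to 94.4 in siNAE1, 61.5 to 66.9 in siUBE2M and 85.6 to 88.4 in siURM1, so that it lay above the control in siNAE1 and siURM1, where IFIT1 rose, and overlapped it in siUBE2M, where IFIT1 rose too. The part of LIPA reads in the counts of these genes was not tested. The sources used here give no strand setting for the counting. In GENCODE v44, LIPA shares 0 exon bases with IFIT1, 65 with IFIT2 and 94 with IFIT3.

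**Figure D2:**
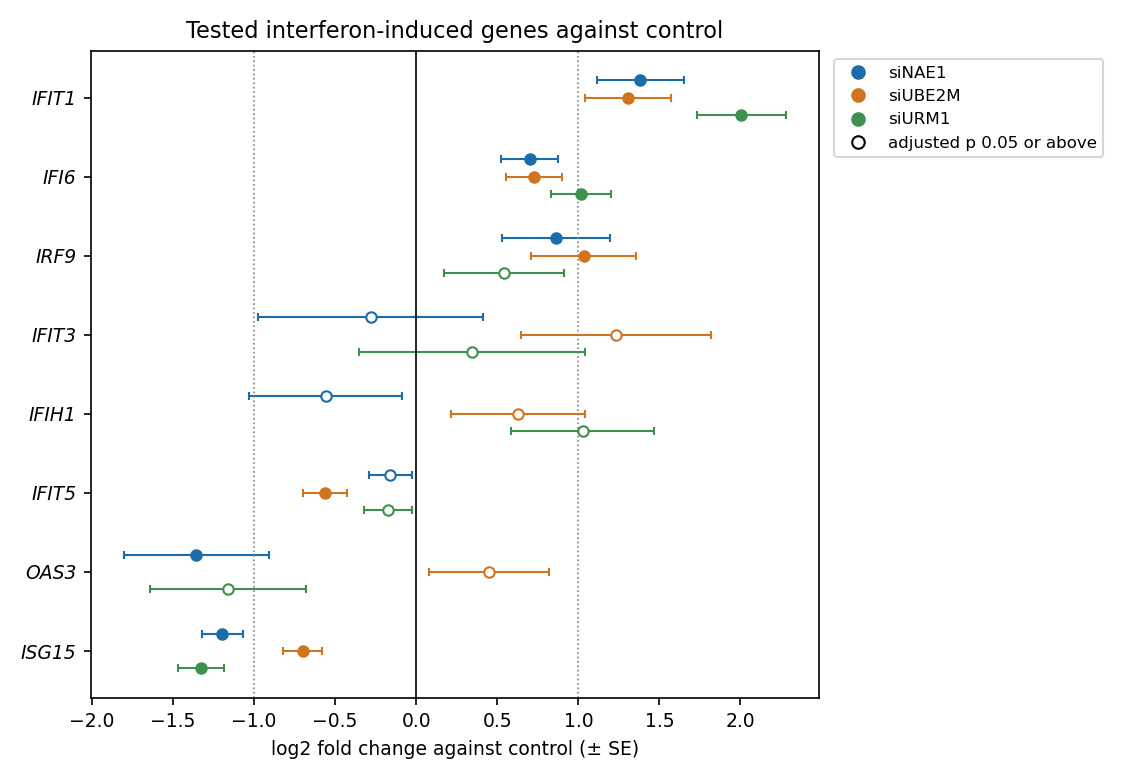
Log2 fold change against control (x axis, with a bar of 1 SE) of the 8 tested members (y axis) in siNAE1, siUBE2M and siURM1, from 1 edgeR fit over 11 libraries. Filled points have an adjusted p under 0.05, and dotted lines mark -1 and 1. All 3 points of IFIT1 and IFI6 are filled and right of 0, and all 3 of ISG15 are filled and left of 0.

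ISG15, a ubiquitin-like modifier that is conjugated to proteins during the antiviral response and is also secreted, was lower in every knockdown library than in any control library. It lies at chr1:1001138-1014540 on the plus strand. ISG15 had 455, 403 and 375 counts in control, 142, 134 and 146 in siNAE1, 181, 252 and 239 in siUBE2M, and 151 and 156 in siURM1. The level was 25.3 ± 1.95 CPM in control (SD, n = 3), 11.1 ± 1.87 in siNAE1, 15.5 ± 1.92 in siUBE2M and 10.1 ± 0.98 in siURM1 (n = 2). ISG15 fell by 1.20 on the log2 scale in siNAE1 (SE 0.13, edgeR adjusted p = 1.20e-09), by 0.70 in siUBE2M (SE 0.12, adjusted p = 1.23e-05) and by 1.33 in siURM1 (SE 0.14, adjusted p = 4.55e-09). These were decreases of 2.29-fold, 1.63-fold and 2.51-fold.

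AL645608.1, named after its values were seen, is listed on the strand opposite to ISG15 within its span and was lower in the same groups. It had 123, 123 and 121 counts in control, 47, 45 and 32 in siNAE1, 55, 69 and 53 in siUBE2M, and 47 and 67 in siURM1. AL645608.1 fell by 1.23 (SE 0.20, edgeR adjusted p = 4.37e-06), 0.88 (SE 0.19, adjusted p = 0.000325) and 1.00 (SE 0.22, adjusted p = 0.000372) on the log2 scale in siNAE1, siUBE2M and siURM1. In GENCODE v44 it shares 0 of the 867 exon bases of ISG15. AL645608.3, a processed pseudogene on the same strand as AL645608.1, shares 36 of them and had 0 to 10 counts per library. Without strand, reads over bases that a gene shares with its antisense partner cannot be told apart. The annotation that was used for counting may differ from GENCODE v44.

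**Figure D3:**
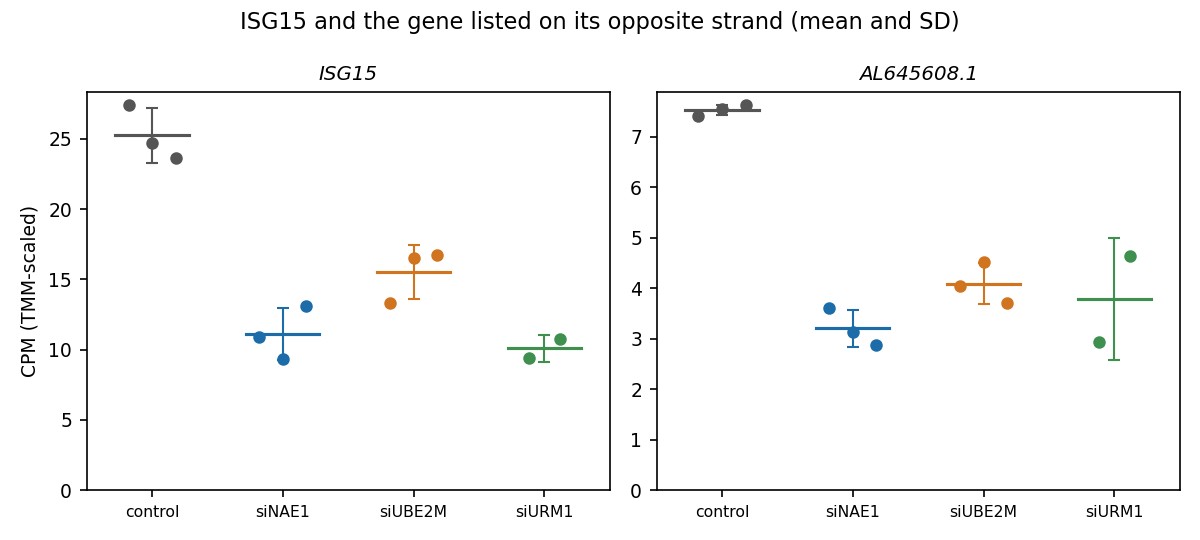
Level of ISG15 (left) and of AL645608.1 on the opposite strand (right) in each library, in CPM scaled by TMM from 0, with 1 point per library, a line at the group mean and a bar of 1 SD (n = 3, 3, 3 and 2). All knockdown points lie below all control points in both panels.

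Of the 5 genes of ISG15 conjugation, all of them tested, 1 rose in siNAE1, 3 in siUBE2M and 4 in siURM1, beside 27.6%, 22.7% and 20.8% of all genes that rose. None fell in any of the 3 comparisons by edgeR at an adjusted p, at an unadjusted p under 0.05 (0 genes) or by DESeq2 (0 genes), beside 27.1%, 22.6% and 20.8% of all genes that fell. At these shares a count of 0 among 5 genes is near the background and no result about the group. HERC5, the main ISG15 ligase, had 12.4 ± 0.91 CPM in control (SD, n = 3), 28.9 ± 1.26 in siNAE1, 37.9 ± 1.95 in siUBE2M and 17.9 ± 0.82 in siURM1 (n = 2), with no overlap between any 2 of these groups. HERC5 rose by 1.22 (SE 0.10, edgeR adjusted p = 7.25e-12), 1.61 (SE 0.10, adjusted p = 1.54e-14) and 0.52 (SE 0.11, adjusted p = 0.000388) on the log2 scale. UBA7, the ISG15-activating enzyme, rose by 1.35 in siUBE2M (SE 0.32, adjusted p = 0.000917). In siURM1 its log2 fold change was 0.95 (SE 0.36, adjusted p = 0.0343). Without control replicate 3, siURM1 replicate 1 or siURM1 replicate 2, that change gave an adjusted p of 0.176, 0.0968 and 0.122. In siNAE1, UBA7 had a log2 fold change of 0.54 (SE 0.35, adjusted p = 0.197). The deconjugating protease USP18 passed in no knockdown, with log2 fold changes from 0.09 to 0.16 and adjusted p from 0.153 to 0.429.

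IFI6, a mitochondrial and endoplasmic reticulum protein that inhibits apoptosis and virus replication, rose in every knockdown. It lies at chr1:27666061-27672218 on the minus strand. IFI6 had 62, 96 and 75 counts in control, 106, 106 and 87 in siNAE1, 102, 109 and 130 in siUBE2M, and 162 and 134 in siURM1. On the CPM scale no knockdown library overlapped the control, although the third siNAE1 library had fewer counts than the second control library. The level of IFI6 was 4.79 ± 1.08 CPM in control (SD, n = 3), 7.78 ± 0.36 in siNAE1, 7.92 ± 1.05 in siUBE2M and 9.68 ± 0.59 in siURM1 (n = 2). IFI6 rose by 0.70 (SE 0.17, edgeR adjusted p = 0.00103), 0.73 (SE 0.17, adjusted p = 0.000818) and 1.02 (SE 0.18, adjusted p = 3.57e-05) on the log2 scale, which were increases of 1.62-fold, 1.65-fold and 2.02-fold.

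IRF9, the DNA-binding subunit of ISGF3, lies at chr14:24161053-24166565 on the plus strand. It had 19, 21 and 18 counts in control, 31, 25 and 27 in siNAE1, 33, 49 and 24 in siUBE2M, and 27 and 26 in siURM1. All knockdown libraries lay above all control libraries, and the siUBE2M libraries were the most spread. IRF9 rose by 0.86 in siNAE1 (SE 0.33, edgeR adjusted p = 0.0283) and by 1.03 in siUBE2M (SE 0.32, adjusted p = 0.00938) on the log2 scale. In siURM1 its log2 fold change was 0.54 (SE 0.37, adjusted p = 0.251). The siNAE1 call was lost without control replicate 1 (adjusted p = 0.0666), control replicate 3 (0.0668), siNAE1 replicate 1 (0.0803) or siNAE1 replicate 3 (0.0767). The siUBE2M call was lost without siUBE2M replicate 2 (adjusted p = 0.0879, log2 fold change 0.79). AL136295.5, which overlaps IRF9 on the same strand over 1544 exon bases and was chosen for that overlap, had 12 to 31 counts per library and log2 fold changes of 0.20, 0.42 and -0.61, none past the test (adjusted p from 0.271 to 0.673).

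OAS3 makes 2′-5′ oligoadenylate when it binds double-stranded RNA and so activates RNase L. The gene lies at chr12:112938352-112973249 on the plus strand. OAS3 had 19, 25 and 28 counts in control, 5, 9 and 8 in siNAE1, 20, 46 and 22 in siUBE2M, and 9 and 11 in siURM1. The siNAE1 and siURM1 libraries were all below the control, while the siUBE2M libraries overlapped it, with the second one highest. OAS3 fell by 1.36 on the log2 scale in siNAE1 (SE 0.45, edgeR adjusted p = 0.0106). Without siNAE1 replicate 1 its log2 fold change was -1.14 with an adjusted p of 0.0538. In siURM1 the log2 fold change was -1.16 (SE 0.48, adjusted p = 0.0529). That p was 0.0476 without control replicate 1, 0.0493 without siNAE1 replicate 1, 0.0496 without siNAE1 replicate 3 and 0.0475 with 2 groups per fit. In siUBE2M the log2 fold change of OAS3 was 0.45 (SE 0.37, adjusted p = 0.343).

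IFIH1 encodes MDA5, a sensor of long double-stranded RNA, and lies at chr2:162267079-162318703 on the minus strand. It had 19, 8 and 16 counts in control, 11, 7 and 5 in siNAE1, 17, 19 and 23 in siUBE2M, and 28 and 27 in siURM1. The siURM1 libraries were the highest and the siNAE1 libraries overlapped the control. The log2 fold changes of IFIH1 were -0.56 (SE 0.47) in siNAE1, 0.63 (SE 0.41) in siUBE2M and 1.03 (SE 0.44) in siURM1, with edgeR adjusted p of 0.328, 0.224 and 0.0612, so that none passed.

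Over the 3 comparisons with control, 13 of 24 member changes passed the test, and 10 of these 13 passed it in every fit without 1 library. The 3 that did not were those of IRF9 in siNAE1 and siUBE2M and of OAS3 in siNAE1. Between the knockdowns, whose siRNA doses differed, 11 of 24 member differences passed, and 4 of these passed in every fit without 1 library. In siNAE1 against siUBE2M, 5 members differed, beside 44.3% of all genes tested. In siNAE1 against siURM1, 2 members differed, beside 38.6%, and in siUBE2M against siURM1, 4 differed, beside 35% of all genes.

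ISG15 was lower in siNAE1 than in siUBE2M by a log2 difference of -0.49 (SE 0.13, edgeR adjusted p = 0.00252) and higher in siUBE2M than in siURM1 by 0.62 (SE 0.15, adjusted p = 0.00111). The ISG15 libraries of siUBE2M lay above those of both other knockdowns. OAS3 was lower in siNAE1 than in siUBE2M by -1.80 (SE 0.44, adjusted p = 0.00103), a 3.49-fold difference. IFIH1 was lower in siNAE1 than in siURM1 by -1.58 (SE 0.48, adjusted p = 0.00847), a difference of 3.00-fold between groups that did not overlap. IFI6 passed in none of these comparisons, with log2 differences of -0.03 (SE 0.17), -0.32 (SE 0.18) and -0.29 (SE 0.18) and adjusted p from 0.169 to 0.913. IRF9 likewise passed in none, with adjusted p from 0.296 to 0.682.

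Per length, the members covered a wide range of levels, and the order is given on the scale of the deposited FPKM (fragments scaled to gene length and library size). In control, ISG15 stood at 26.7 ± 1.95 FPKM (SD, n = 3), IFI6 at 5.50 ± 1.27 and IFIT5 at 3.65 ± 0.65, and the libraries of these 3 genes did not overlap. IRF9 (0.311 ± 0.024), IFIT1 (0.296 ± 0.102), OAS3 (0.178 ± 0.038), IFIH1 (0.171 ± 0.066) and IFIT3 (0.153 ± 0.105) followed below 1 FPKM. Neighbours in this order overlapped over their libraries, except IFIT1 and OAS3, whose libraries lay just apart. IFIT2 was lowest, at 0.0099 ± 0.0086 FPKM. In siNAE1 and siUBE2M, ISG15 was still above IFI6, with 11.7 ± 1.97 against 8.88 ± 0.42 FPKM and 16.3 ± 2.02 against 9.06 ± 1.24. In siURM1, IFI6 stood at 11.1 ± 0.66 FPKM and ISG15 at 10.7 ± 1.04 (n = 2), and their libraries overlapped.

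The interferon genes themselves were at or near 0. Of 21 listed, 10 had no count in any library, IFNB1 among them, none passed the filter, and the 21 genes held 63 counts in all over 11 libraries. A count of 0 allows up to 3 counts. In all, 4 genes reached 3 counts in a library. IFNE, an epithelial type I interferon, had 6, 3 and 2 counts in control, 5, 0 and 2 in siNAE1, 4, 1 and 2 in siUBE2M, and 6 and 2 in siURM1. IFNA1 reached 3 counts in 1 siUBE2M library, IFNA5 reached 3 in 1 siNAE1 and 4 in 1 siURM1 library, and IFNA13 reached 3 in 1 control library. The summed level of the 21 genes was 0.252 to 0.543 CPM in control and 0.0698 to 0.662 in the knockdown libraries, which overlapped.

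Other genes induced by interferon gave a mixed picture. Of 55 such genes outside the members, 51 had a count, 14 stayed under 3 counts in every library and 30 were tested. In siNAE1, 10 rose and 7 fell, beside 27.6% and 27.1% of all genes. In siUBE2M, 12 rose, beside 22.7%, and none fell by edgeR at an adjusted p, at an unadjusted p under 0.05 (0 genes) or by DESeq2 (0 genes), beside 22.6%. These checks cover the tested genes only. Of those not tested, CMPK2 had 3, 4 and 6 counts in control and 0, 1 and 0 in siUBE2M. TRIM22, also not tested, went the other way, with 2, 5 and 1 counts in control and 10, 5 and 9 in siUBE2M. In siURM1, 7 rose and 2 fell, beside 20.8% in each direction. The median log2 fold change of the 30 genes was 0.04, 0.31 and 0.17, beside the medians near 0 over all genes given above. B2M, IFI35, IFI44L, IFITM1 and LGALS3BP rose in all 3 knockdowns, as 9.3% of all genes tested did, and none fell in all 3, as 9.62% of all genes did. The 3 comparisons share the control libraries. Genes that are classically among the most strongly induced, named after their values were seen, differed in level. IFI27 had 27 to 95 counts per library, and IFI44L, which rose in all 3 knockdowns, had 4 to 6 in control and 7 to 19 in the knockdowns, while others had few or no counts: OAS1 had 0 in every library, RSAD2 at most 1, CXCL10 at most 2, OASL at most 2 and MX1 at most 7, the last in a control library.

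Among the tested genes of this list of other interferon-induced genes that averaged 1 CPM or more, BST2, DDX60, IFI35 and IFITM1 had the largest changes. IFITM1, which blocks virus entry, rose by 1.47 (SE 0.20, edgeR adjusted p = 2.96e-07), 0.73 (SE 0.21, adjusted p = 0.00562) and 1.58 (SE 0.22, adjusted p = 5.36e-07) on the log2 scale in siNAE1, siUBE2M and siURM1, the second of these with an adjusted p of 0.0509 without control replicate 1. IFI35 rose by 0.82 (SE 0.26, adjusted p = 0.00722), 1.66 (SE 0.24, adjusted p = 9.00e-07) and 1.32 (SE 0.27, adjusted p = 0.000136), the first with an adjusted p of 0.0696 without siNAE1 replicate 2. BST2, or tetherin, which holds budding virus at the cell surface, rose by 1.33 in siNAE1 (SE 0.36, adjusted p = 0.00191) and 1.76 in siURM1 (SE 0.37, adjusted p = 0.000240). In siUBE2M its log2 fold change was 0.01 (SE 0.40, adjusted p = 0.986), and it was below 0 in some other fits. DDX60, a helicase that assists RIG-I, fell by 1.70 in siNAE1 (SE 0.31, adjusted p = 2.56e-05), and its log2 fold changes were -0.26 in siUBE2M and 0.11 in siURM1 (adjusted p = 0.448 and 0.796).

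**Figure D4:**
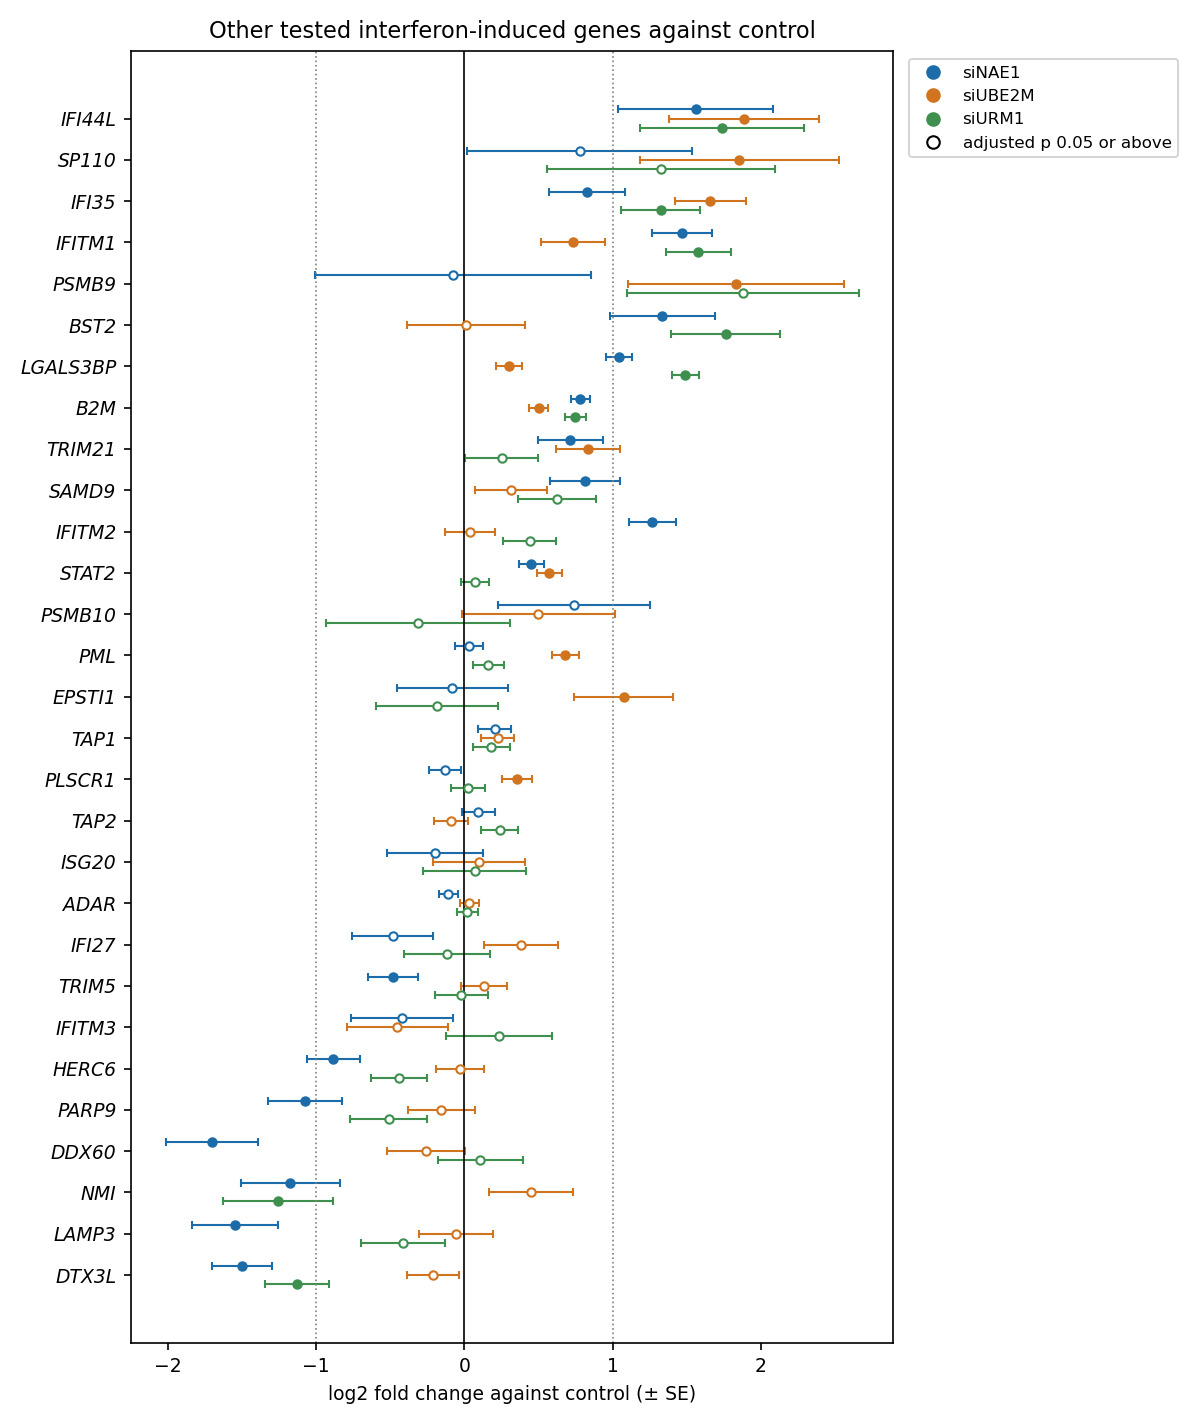
Log2 fold change against control (x axis, with a bar of 1 SE) of 29 of the 30 tested interferon-induced genes that are no members (y axis, ordered by their mean over the 3 knockdowns) in siNAE1, siUBE2M and siURM1. Filled points have an adjusted p under 0.05 in edgeR, and dotted lines mark -1 and 1. Filled points of siNAE1 lie on both sides of 0, 10 right and 7 left, while the 12 filled points of siUBE2M all lie right of 0.

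Sensors and adaptors of nucleic acid detection were mostly expressed, and 15 of 19 were tested. In siNAE1, 5 rose and 2 fell, in siUBE2M 5 rose and 1 fell, and in siURM1 3 rose and 1 fell. Over all genes tested, 27.6%, 22.7% and 20.8% rose and 27.1%, 22.6% and 20.8% fell, so that the shares that rose lay near the background. ZC3HAV1, the antiviral protein ZAP that binds CpG-rich RNA, rose by 1.03 (SE 0.08, edgeR adjusted p = 6.45e-13), 1.06 (SE 0.08, adjusted p = 7.67e-13) and 0.66 (SE 0.09, adjusted p = 1.71e-07) on the log2 scale. TMEM173, which encodes the DNA-sensing adaptor STING, rose by 1.32 in siNAE1 (SE 0.31, adjusted p = 0.000552), and its log2 fold changes were -0.27 in siUBE2M and 0.32 in siURM1 (adjusted p = 0.559 and 0.520). The kinase gene TBK1 rose in all 3 knockdowns, by 0.70, 0.71 and 0.48. DDX58, named after its values were seen, did not pass, with log2 fold changes of -0.05, -0.18 and -0.23 and adjusted p from 0.378 to 0.824. EIF2AK2, the kinase PKR, also named after its values were seen, rose by 0.29 in siUBE2M (SE 0.08, adjusted p = 0.00406), and its log2 fold changes were -0.02 in siNAE1 and 0.09 in siURM1 (adjusted p = 0.876 and 0.445). TLR3 was not tested and had at most 10 counts in a library.

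Further along the pathway, 6 of 8 interferon regulatory factors outside the members were tested, and 2 rose in each knockdown, while IRF2 fell in siNAE1. IRF8 rose in all 3, by 0.83, 0.73 and 0.92 on the log2 scale. All 12 genes of interferon receptors and JAK signalling were tested. Of these, 3 rose and 2 fell in siNAE1, 3 rose in siUBE2M, and 2 rose and 1 fell in siURM1. SOCS3, a feedback inhibitor of JAK kinases, rose by 1.37 in siNAE1 (SE 0.36, adjusted p = 0.00154) and by 1.08 in siURM1 (SE 0.39, adjusted p = 0.0265). The siURM1 change gave an adjusted p of 0.0817 without control replicate 1, 0.0563 without control replicate 2 and 0.266 without siURM1 replicate 2. In siUBE2M the log2 fold change of SOCS3 was 0.65 (SE 0.37, adjusted p = 0.156). Of the NF-kB-induced inflammatory genes, 7 of 14 were tested, and 4 rose in siNAE1, 1 rose and 1 fell in siUBE2M, and 2 rose in siURM1. Beside the 27.6%, 22.7% and 20.8% of all genes that rose and the 27.1%, 22.6% and 20.8% that fell, the counts of these 3 lists are small numbers of genes and are given as no result about the lists.

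The members themselves had no common course over the 11 libraries. Their correlation with the mean z-score of the 8 tested members, each taking part in that mean, ran from Pearson's r = -0.48 for IFIT5 to 0.67 for IFIT3, with -0.25 for ISG15. Outside the members, genes whose log2 CPM was among the most like that mean over the 11 libraries were COG6 (r = 0.934), RASA2 (r = 0.932), GAPVD1 (r = 0.926) and ESR2 (r = 0.918). The libraries share their group structure, and the values are a description.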

How the data were processed

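Messenger RNA of HEK293T cells was sequenced in 11 libraries, 3 of control, 3 of siNAE1, 3 of siUBE2M and 2 of siURM1. The authors used fastp for trimming, HISAT2 2.0.5 for alignment to GRCh38 and featureCounts 1.5.0-p3 for counting. The counts they deposited are not normalized, and the deposited FPKM values are those counts divided by a gene length and a constant of each library. The library kit was stranded, while the strand setting of the counting and the annotation version are not given in the sources used here. Of the 58735 identifiers, 58207 are in GENCODE v44. Total counts limit the precision for genes with few counts, and 3 counts served as the floor of detection.

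The main test was that of edgeR 4.0.16 in R 4.3.3 (filterByExpr, TMM, 1 quasi-likelihood fit of 4 groups, Benjamini-Hochberg adjustment over 18368 genes). SEs are the absolute log2 fold change divided by the square root of F. CPM uses TMM-scaled library sizes, and the log2 CPM behind the correlations a prior count of 2. Promoter motifs were searched in RefSeq windows. Tests were checked on simulated data. The alternatives were RLE normalization, no filter, 2 groups per fit, a minimum of 10 counts in each library, the replicate number as a block, DESeq2 1.42.0, limma 3.58.1 on log2(FPKM + 1) and on log2(FPKM + 0.1) with a mean FPKM of at least 0.5, and leaving out each library. Summaries used pandas 2.3.3 in Python 3.11.15, and plots matplotlib 3.10.9.

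The members and gene lists were chosen with earlier results of these data known. Named by rule were the members, the targeted genes, up to 4 genes per list (DEGs in a knockdown that averaged 1 CPM or more, by size of change), interferon genes with at least 3 counts in a library, and the 5 genes most like the mean of the members. Some genes that this rule names are not reported here. Other genes named for a count or an overlap were chosen after their values were seen. No column of values was left unused.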

Additional observations from a re-analysis of the deposited data

Results flagged for a closer look

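The change against control of a member differed between 2 knockdowns in 11 cases, by the test of the difference itself in the edgeR fit of all libraries. Of all genes tested, 44.3% differed in siNAE1 against siUBE2M, 38.6% in siNAE1 against siURM1 and 35% in siUBE2M against siURM1. The 11 cases lie near these shares and are no result about the members as a group. The values are log2 differences between the first and the second knockdown named. The siRNA doses differed between the knockdowns, and their part in these differences cannot be told apart from that of the targeted gene. No group has 4 or more libraries, so no library was tested for lying far from the others of its group.

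Of these differences, 4 passed in every fit without 1 library: ISG15 in siNAE1 against siUBE2M (-0.49, adjusted p = 0.00252) and in siUBE2M against siURM1 (0.62, adjusted p = 0.00111), IFIH1 in siNAE1 against siURM1 (-1.58, adjusted p = 0.00847), and OAS3 in siNAE1 against siUBE2M (-1.80, adjusted p = 0.00103). The estimates of IFIH1 and OAS3 against control had opposite signs in these pairs, although of these 4 changes only that of OAS3 in siNAE1 passed the test, while ISG15 fell in both knockdowns of each pair by unequal amounts.

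The other 7 lost the call in at least 1 fit without 1 library. OAS3 in siUBE2M against siURM1 (1.61, adjusted p = 0.00829) lost it without siUBE2M replicate 2 (0.0959) or siURM1 replicate 1 (0.0895). IFIH1 in siNAE1 against siUBE2M (-1.19, adjusted p = 0.0334) lost it without siNAE1 replicate 2 (0.0997), siNAE1 replicate 3 (0.0965) or siUBE2M replicate 3 (0.102). IFIT3 in siNAE1 against siUBE2M (-1.51, adjusted p = 0.04998) lost it in 6 fits, without control replicate 2, siNAE1 replicates 1 and 3, siUBE2M replicates 1 and 2 or siURM1 replicate 1, with an adjusted p of up to 0.173.

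IFIT1 in siUBE2M against siURM1 (-0.70, adjusted p = 0.0285) lost the call without siUBE2M replicate 1 (0.0786), siUBE2M replicate 2 (0.0616), siURM1 replicate 1 (0.0953) or siURM1 replicate 2 (0.126). IFIT1 in siNAE1 against siURM1 (-0.62, adjusted p = 0.0497) lost it in 7 fits, without siNAE1 replicates 1 and 3 and without any siUBE2M or siURM1 library, with an adjusted p of up to 0.173. IFIT5 in siNAE1 against siUBE2M (0.41, adjusted p = 0.0188) lost it without siNAE1 replicate 1 (0.0550), siNAE1 replicate 2 (0.103), siUBE2M replicate 1 (0.0556) or siUBE2M replicate 3 (0.0669). IFIT5 in siUBE2M against siURM1 (-0.39, adjusted p = 0.0463) lost it without siUBE2M replicate 1 (0.0956), siUBE2M replicate 3 (0.120), siURM1 replicate 1 (0.120) or siURM1 replicate 2 (0.169).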

How the results depend on the processing

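The changes of IFIT1, ISG15 and IFI6 in all 3 knockdowns and of IFIT5 in siUBE2M kept their direction and stayed past the test under every alternative run, although on log2(FPKM + 1) the change of IFIT1, a gene of low level, was 0.45, 0.42 and 0.76 in siNAE1, siUBE2M and siURM1. Limma tested 4 members (IFIT1, IFIT5, ISG15 and IFI6). Under limma on log2(FPKM + 1) and on log2(FPKM + 0.1), 3 members passed in siNAE1 against 5, and between knockdowns 1 passed in siNAE1 against siUBE2M, 0 in siNAE1 against siURM1 and 1 in siUBE2M against siURM1, with 0 DEGs in each of these 3. The DEGs against control under limma on log2(FPKM + 1) were 1 in siNAE1, 0 in siUBE2M and 1 in siURM1, and with 0.1 added 1 in siUBE2M. With at least 10 counts in every library, 2 members passed in siNAE1 against siUBE2M, 1 in siNAE1 against siURM1 and 2 in siUBE2M against siURM1, with 0 DEGs in each. Fewer members were tested there, and IFIT5 in siUBE2M against siURM1, which was tested, had an adjusted p of 0.0531. In siNAE1 against siURM1, 1 member passed without a filter, with DESeq2 and with the replicate block, against 2. The replicate numbers were blocked although libraries with the same number did not deviate together (r from -0.07 to 0.08 over 15 pairs, and from -0.10 to 0.07 over 30 pairs with different numbers). Beside IFIT1 in that comparison, the block, no filter and DESeq2 each ended the calls of IFIT3 in siNAE1 against siUBE2M (adjusted p = 0.0548, 0.0650 and 0.0709) and IFIT5 in siUBE2M against siURM1 (0.0560, 0.0625 and 0.0679). Among the other genes named, the block ended the call of UBA7 in siURM1 (0.0670). Both limma fits ended the calls of UBA7 and SOCS3 in siURM1, of IFIT1 in siNAE1 against siURM1 and siUBE2M against siURM1, and of IFIT5 in siNAE1 against siUBE2M and siUBE2M against siURM1.

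Without 1 library, the number of members past the test ranged from 3 to 5 in siNAE1, 4 to 6 in siUBE2M and 3 to 4 in siURM1, and from 3 to 5, 1 to 2 and 1 to 4 in siNAE1 against siUBE2M, siNAE1 against siURM1 and siUBE2M against siURM1. DEGs ranged from 2 to 4, 1 to 3 and 2 to 4 against control, from 1 to 3 in siNAE1 against siUBE2M and from 0 to 1 in siUBE2M against siURM1. Values near 0 changed sign. The log2 difference of IFIT5 in siNAE1 against siURM1 was -0.0046 and -0.0074 by limma and -0.061 to 0.11 without 1 library, and BST2 in siUBE2M was -0.013 and -0.074 by limma and -0.37 to 0.37 without 1 library. The ranges without 1 library also crossed 0 for IFIT1 (-0.056 to 0.20), IFI6 (-0.11 to 0.087) and IRF9 (-0.38 to 0.071) in siNAE1 against siUBE2M, OAS3 in siNAE1 against siURM1 (-0.41 to 0.029), IFIT3 in siNAE1 (-0.70 to 0.42) and siURM1 (-0.24 to 1.05), and DDX60 in siURM1 (-0.19 to 0.35). Except where stated, the cause was not tested. Depth limits IFIT2 and IFIT3, which had under 20 counts in every library.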
